A study of Mus musculus with 17 samples.

Results

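The comparison described here is that of APP/PS1 mice with wild-type (WT) mice, both given the control peptide, in RNA sequencing of microvessels from the cerebral cortex. It was made by genotype and peptide labels alone: 2 libraries of APP/PS1 with control peptide (APP_SC) were compared with 5 of WT with control peptide (WT_SC), 7 of the 17 libraries of the series, over the 18753 of 42687 genes that passed a filter on low counts. The mice of every group were 10 to 11 months old and received peptide intraperitoneally at 10 mg/kg, every 2 days over 2 weeks. The control peptide was sgp91-ds-tat, which the sample labels are taken to write as SC. The other 10 libraries came from WT (5, WT_NOX2) and APP/PS1 (5, APP_NOX2) mice given gp91-ds-tat, a peptide inhibitor of the NADPH oxidase NOX2, and serve here as separate libraries of the same genotype difference. The genotype is APP in the sample labels and APP/PS1 in the series' design text. The line, the promoter of the transgenes, the strain and the sex of the mice are not given in the sources used here. Nothing in the labels says that the replicates of a group came from separate animals, so p-values measure the spread between these libraries, which may in part be technical. Replicate numbers follow the order of the samples and pair no libraries.

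APP/PS1 mice carry transgenes that raise the making of amyloid from the amyloid precursor protein APP, and they accumulate amyloid with age. Microglia, the resident macrophages of the brain, gather at amyloid plaques, where they switch on a set of genes that depends on the receptor TREM2 and its adaptor TYROBP. NOX2 is an enzyme of phagocytes and vessels that makes superoxide, and its catalytic subunit is encoded by Cybb. The series title concerns oxidative stress of vessels and neutrophils that stall in brain capillaries. The labels give the cell types as endothelial cells, pericytes and endfeet of astrocytes.

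Total counts were 9356110 to 17862965 in WT_SC, and 16292707 and 12390525 in APP_SC replicates 1 and 2. Levels are in CPM, the counts of a gene scaled to a common library size by TMM. Markers of the labelled cell types were found in all 7 libraries: Cldn5, a tight junction protein of endothelium, was at 155 to 383 CPM, the pericyte gene Rgs5 at 532 to 897 CPM and the endfoot water channel gene Aqp4 at 77.2 to 147 CPM. Neuronal RNA was present as well, with Snap25 at 359 to 610 CPM. The typical gene differed by 0.20 on the log2 scale between the 2 APP_SC libraries (median of the absolute difference), within the 0.14 to 0.28 found over the 10 pairs of WT_SC libraries. The extraction protocol in the labels speaks of ipsilateral cortices after surgery, citing earlier work, and no surgery is named in the groups.

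Libraries stood apart in ways that the labels do not explain. Xist, the RNA that coats the inactive X chromosome, was at 10174, 593, 526, 6700 and 123 CPM in WT_SC replicates 1 to 5, at 13.5 CPM in APP_SC replicate 1 and at 7982 CPM in APP_SC replicate 2. The Y-linked gene Eif2s3y was at 0.0578, 115, 94.4, 0.0893 and 86.7 CPM in WT_SC, and at 94.9 and 3.16 CPM in APP_SC. Ddx3y, Kdm5d and Uty split the libraries in the same way, and APP_SC replicate 2 was low but not at 0 for each of the 4 genes (2.83 to 3.83 CPM). The APP_SC libraries thus differed from each other in Xist and in Y-linked genes, and each had WT_SC libraries of its own kind: 3 with Y-linked genes at 10 CPM or more beside replicate 1, and 2 beside replicate 2. Markers of choroid plexus epithelium, the tissue that makes cerebrospinal fluid, varied most: their summed level was 30.3 to 8159 CPM in WT_SC, and 1926 and 200 CPM in APP_SC. Ttr, the most abundant of them, was at 10.5, 138, 3805, 7381 and 1969 CPM in WT_SC and at 1710 and 163 CPM in APP_SC. Results are therefore given below for each APP_SC library, and with measured scores of these genes as covariates where a call depended on them. The part of sex or of choroid plexus tissue in the results was not tested beyond those fits.

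**Figure D1:**
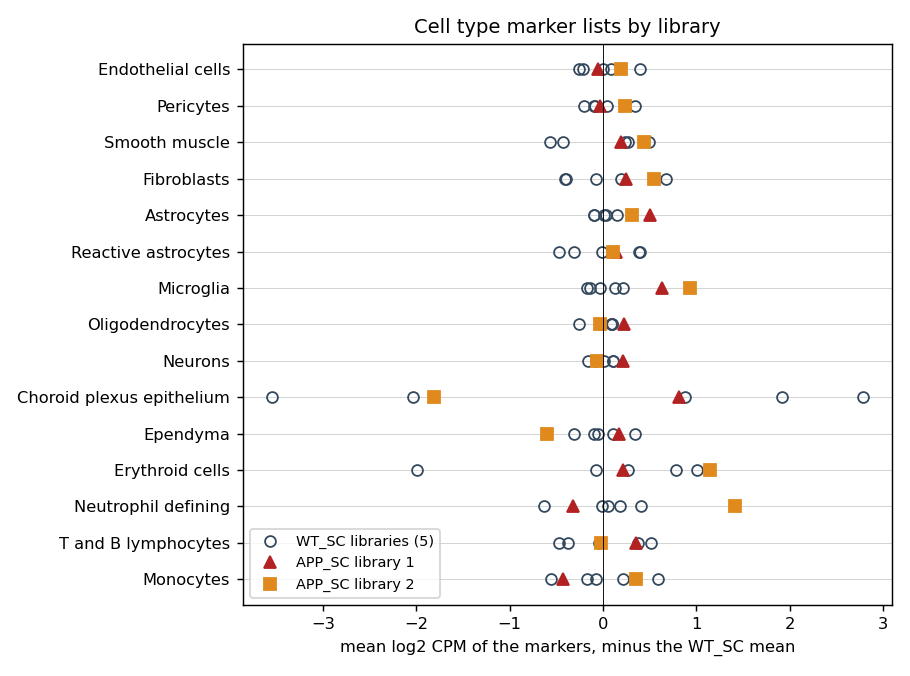
Mean log2 CPM of the markers of each cell type (rows) in each control-peptide library, as the difference from the mean of the 5 WT_SC libraries (x axis, log2); open circles are WT_SC libraries and the filled triangle and square are APP_SC libraries 1 and 2. Both APP_SC libraries are above all WT_SC libraries for the microglia and astrocyte markers, choroid plexus markers spread most, and the neutrophil markers are high in APP_SC library 2 alone.

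With control peptide, 10 genes rose in APP/PS1 and 0 fell. They were 7 genes known from microglia and other leukocytes (Cst7, Clec7a, Itgax, Trem2, Mpeg1, Ctss and Ptprc), the olfactory receptor gene Olfr111, and 2 neighbours on chromosome 2 (Prnp and Lamr1-ps1). All 10 were higher in both APP_SC libraries than in any WT_SC library. The log2 change was smallest for Ptprc, at 1.12, and 4.96 for Cst7, while that of Lamr1-ps1, which had at most 2 counts in a WT_SC library, is given below as a lower bound. Markers of microglia moved with them: the summed level of 6 markers was 176 to 218 CPM in WT_SC and 297 and 371 CPM in the APP_SC libraries, and none was at 0. The summed level of 6 astrocyte markers was also higher in both, at 3204 to 3570 CPM in WT_SC and 4709 and 3708 CPM in APP_SC, with none at 0. The part of either cell type in the calls was not tested beyond a fit with a microglia score given below. In bulk libraries more cells of a type and more RNA per cell cannot be told apart. Calls are genes with p under 0.05 in the quasi-likelihood test of edgeR, after adjustment over 18753 genes (Benjamini-Hochberg), and the 10 genes are 0.0533% of those tested. At an unadjusted p under 0.05 there were 342 higher and 403 lower genes, and the smallest adjusted p of a lower gene was 0.251 (edgeR). DESeq2's Wald test called 45 genes (42 higher, 3 lower; 0.24% of its genes), the 10 among them, whereas limma-voom called 11 higher and 0 lower. Both APP_SC libraries lay above all WT_SC libraries for 676 genes, which is 3.6% of genes, and below them for 737, which is 3.93%.

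The count of calls depended on single libraries. It was 6 without APP_SC replicate 1, 4 without APP_SC replicate 2, 6 without WT_SC replicate 3 and 17 without WT_SC replicate 4. A fit that leaves 1 APP_SC library assumes that it varies like the other groups. Lamr1-ps1, Cst7, Clec7a and Mpeg1 passed in each of the 7 fits that leave out a control-peptide library. Itgax was lost without APP_SC replicate 2 (edgeR adjusted p = 0.0883) and Prnp without either APP_SC library (edgeR adjusted p = 0.0864 and 0.288). Ctss and Ptprc passed in 2 of the 7 such fits, Olfr111 in 3, and Trem2 in 5.

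**Figure D2:**
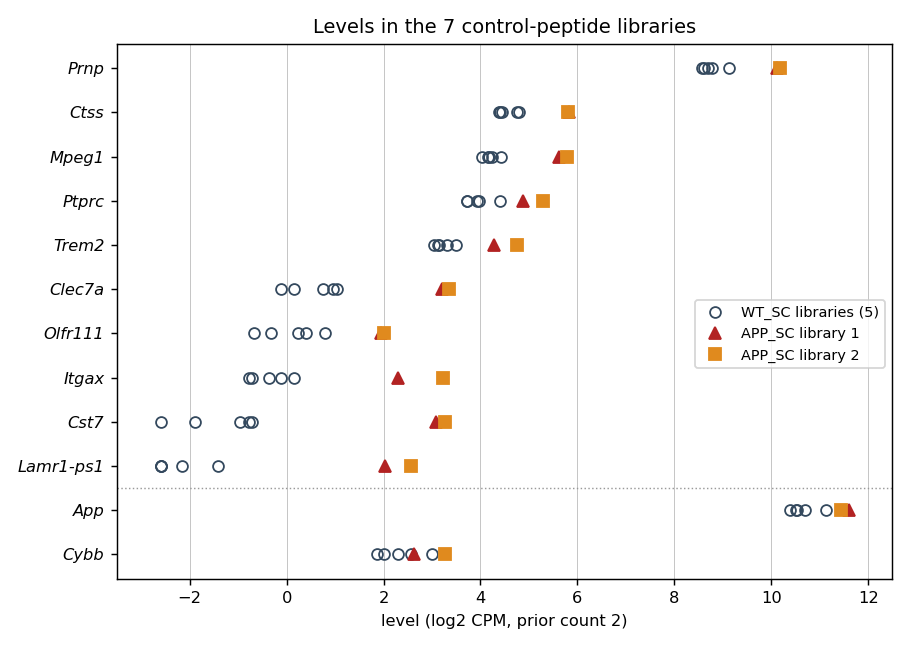
Level of each gene (x axis, log2 CPM with a prior count of 2) in the 7 control-peptide libraries; open circles are the 5 WT_SC libraries, the triangle APP_SC library 1 and the square APP_SC library 2, with the 10 genes past the threshold above the dotted line and App and Cybb below it. For the 10 genes and for App both APP_SC libraries are right of all 5 WT_SC libraries, and for Cybb the groups overlap.

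The genotype was checked with App and Prnp. App (ENSMUSG00000022892, chr16:84949685-85173766 in GRCm38), which encodes the amyloid precursor protein, was at 2230, 1448, 1486, 1646 and 1336 CPM in WT_SC and at 3113 and 2761 CPM in APP_SC. Both APP_SC libraries were higher than every WT_SC library, the closest being WT_SC replicate 1. The log2 change of 0.85 ± 0.22 (SE) did not pass over all genes with edgeR (adjusted p = 0.335), and DESeq2 gave an adjusted p of 0.0347. The exact two-sided permutation test of 2 against 5 libraries gave p = 0.0952, the smallest that this design allows.

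Prnp (ENSMUSG00000079037, chr2:131909928-131938429), which encodes the prion protein, was at 555, 414, 392, 435 and 382 CPM in WT_SC, and at 1101 and 1156 CPM in APP_SC. The groups did not overlap, and the log2 change was 1.37 ± 0.21 (SE, edgeR adjusted p = 0.00822). Its exact permutation p was again 0.0952, and those of App, Prnp and Cybb adjusted over the 3 genes were 0.143, 0.143 and 0.19. Lamr1-ps1 (ENSMUSG00000081229, chr2:131904086-131904959), a processed pseudogene of a ribosomal protein gene, had 1, 0, 0, 0 and 2 counts in the WT_SC libraries, and 65 and 69 counts in APP_SC. Taken against a floor of 3 counts per library, the mean of APP_SC was higher by at least 17.6-fold (edgeR adjusted p = 9.5e-06). It ends 4969 bases before the start of Prnp on the same strand. Rassf2, the nearest tested gene after Prnp, had a log2 change of 0.21 and Slc23a2 one of -0.14, neither past the threshold (edgeR adjusted p = 1 for both), and Prnd, next to Prnp, had at most 2 counts in a library. Rpsa, whose protein-coding sequence the pseudogene copies, was at 59.6 to 107 CPM in WT_SC and at 85 and 96.9 CPM in APP_SC. How the counting treated reads shared by a gene and its copies, or by a gene and a transgene, is not given in the sources used here, so the counts of App, Prnp and Lamr1-ps1 are uncertain in that respect.

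Of 17 tested genes of the APP family and of APP processing, 1 rose (Prnp, listed with them), 0 fell, and the median log2 change was 0.13 beside 0.00 over all genes. Bace1, chosen after its values were seen like Ide and Mme below, is the beta-secretase that makes the first cut toward amyloid. It was at 118 to 131 CPM in WT_SC and at 139 and 133 CPM in APP_SC, a log2 change of 0.11 that did not pass (edgeR adjusted p = 1). Adam10, which cuts APP on the other path, had a log2 change of 0.19, and the amyloid-degrading enzyme genes Ide and Mme had 0.30 and -0.09, none of them past the threshold.

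Promoter sequence is shown for 5 of the genes that rose, those whose RefSeq promoter window (build GRCm38.p6, 250 bases before the start to 50 after) held a searched motif. The stretch printed runs from 150 bases before the start to 10 after, 5′ to 3′ on the gene's strand, and capitals mark the motif.
Cst7, chr2:150570265-150570424, plus strand: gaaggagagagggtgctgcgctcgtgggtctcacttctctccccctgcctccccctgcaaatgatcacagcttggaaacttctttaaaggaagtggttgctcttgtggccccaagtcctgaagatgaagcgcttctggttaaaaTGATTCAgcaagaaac
Itgax, chr7:128129400-128129559, plus strand: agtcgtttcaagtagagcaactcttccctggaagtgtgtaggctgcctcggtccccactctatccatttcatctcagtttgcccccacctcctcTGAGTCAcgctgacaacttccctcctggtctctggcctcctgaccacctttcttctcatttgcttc
Trem2, chr17:48346251-48346410, plus strand: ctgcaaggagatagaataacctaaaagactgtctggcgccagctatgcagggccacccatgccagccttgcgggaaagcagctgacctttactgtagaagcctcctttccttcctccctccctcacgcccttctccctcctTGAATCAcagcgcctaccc
Prnp, chr2:131909778-131909937, plus strand: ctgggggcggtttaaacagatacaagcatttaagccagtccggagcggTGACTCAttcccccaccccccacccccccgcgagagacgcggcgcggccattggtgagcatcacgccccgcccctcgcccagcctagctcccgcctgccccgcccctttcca
Ctss, chr3:95526636-95526795, plus strand: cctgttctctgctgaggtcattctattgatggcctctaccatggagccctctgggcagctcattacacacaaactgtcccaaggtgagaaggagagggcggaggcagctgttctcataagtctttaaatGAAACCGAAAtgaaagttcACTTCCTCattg
The capitals are TGANTCA, the AP-1 motif, in Cst7, Itgax, Trem2 and Prnp, and in Ctss the interferon response motif, followed by the PU.1 motif GAGGAAGT read on the other strand. Of the 9 genes that rose and have a window in the table, 4 (44.4%, exact 95% interval 13.7% to 78.8%) held TGANTCA, against 7.93% of 27025 promoters. GAGGAAGT was in 1 of 9 (11.1%) against 3.28%, the interferon response motif in 1 of 9 (11.1%) against 3.49%, and CACGTG, the E-box, in 0 of 9 against 7.24%. Both strands were searched, and the letters of these motifs do not hold one another. In the 200 bases before the start, TGANTCA was in 3 of 9 (33.3%) against 5.55%, since the match of Cst7, which begins 6 bases before the start, runs over it. GAGGAAGT was then in 0 of 9 against 2.1%. Of the 10 next higher genes, 7 have a window in the table, and TGANTCA was in 0 of these 7 and GAGGAAGT in 2 (28.6%). A match is a run of letters and is not evidence that a factor was bound.

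Genes of plaque-associated microglia made up the largest group among the 10. Of the 23 tested, 4 rose (Cst7, Clec7a, Itgax and Trem2), 21 had a positive log2 change, 9 were higher in both APP_SC libraries than in any WT_SC library, and the median log2 change was 0.55. Over all 18753 genes, 10 rose (0.0533%), 9593 had a positive log2 change and 745 had an unadjusted p under 0.05 (edgeR). Both APP_SC libraries were above all WT_SC libraries for 3.6% of them, and the median was 0.00. These values over all genes stand beside those of each list below. Cst7 (chr2:150570415-150578944), which encodes the cathepsin inhibitor cystatin F, was at 0.347, 0.105, 0, 0.447 and 0.418 CPM in WT_SC and at 8.37 and 9.48 CPM in APP_SC (log2 change 4.96 ± 0.49 SE, edgeR adjusted p = 5.02e-05). Clec7a (chr6:129461591-129472779), the receptor dectin-1, was at 0.752, 0.943, 1.52, 1.79 and 1.88 CPM in WT_SC, and at 9.1 and 10.1 CPM in APP_SC (2.82 ± 0.30 SE, edgeR adjusted p = 0.000123). For both genes the APP_SC libraries were close to each other and several times above the highest WT_SC library.

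Itgax (chr7:128129547-128150657), which encodes the integrin CD11c, was at 0.418 to 0.943 CPM in WT_SC and at 4.73 and 9.15 CPM in APP_SC, a change of 3.41 ± 0.43 on the log2 scale (SE, edgeR adjusted p = 0.000798). Replicate 2 was the higher of the APP_SC libraries. The microglial receptor gene Trem2 (chr17:48346401-48354147) was at 8.73, 9.74, 8.13, 8.57 and 11.1 CPM in WT_SC, and at 19.1 and 26.7 CPM in APP_SC (1.31 ± 0.21 SE, edgeR adjusted p = 0.0153). Its adjusted p was 0.955 without APP_SC replicate 2 and 0.0588 when only the 7 control-peptide libraries were fitted. Tyrobp, its adaptor, was at 2.2 to 5.18 CPM in WT_SC and at 10.6 and 11.1 CPM in APP_SC, and did not pass (log2 change 1.54, edgeR adjusted p = 0.083; DESeq2 adjusted p = 0.00283). The lipoprotein lipase gene Lpl was higher by 0.69 on the log2 scale without passing (edgeR adjusted p = 0.18), and the chemokine gene Ccl3, at 0.102 to 0.536 CPM in WT_SC and 1.64 and 1.75 CPM in APP_SC, one of 2.21 (edgeR adjusted p = 0.335). Other genes of the group, chosen after their values were seen, overlapped: Axl was at 54.5 to 76.7 CPM in WT_SC and 64.3 and 79.7 CPM in APP_SC, and Spp1 at 16.9 to 42.7 CPM and 28 and 32.5 CPM.

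Mpeg1 (chr19:12460779-12465283), a pore-forming protein of macrophages, was at 17.9, 18.5, 16.3, 21.2 and 17.7 CPM in WT_SC and at 49.3 and 55.2 CPM in APP_SC (log2 change 1.51 ± 0.18 SE, edgeR adjusted p = 0.000468). The lysosomal protease gene Ctss (chr3:95526786-95556403) was at 27.5, 20.6, 20.9, 26.7 and 21.8 CPM in WT_SC, and at 56.6 and 55.6 CPM in APP_SC (1.25 ± 0.21 SE, edgeR adjusted p = 0.0189). Ptprc (chr1:138062861-138175708), the leukocyte common antigen CD45, was at 13.1 to 21.1 CPM in WT_SC and at 29.4 and 38.6 CPM in APP_SC (1.12 ± 0.19 SE, edgeR adjusted p = 0.0272). Olfr111 (chr17:37508030-37532449), an olfactory receptor gene, was at 0.463, 1.57, 1.02, 1.16 and 0.628 CPM in WT_SC and at 3.7 and 3.83 CPM in APP_SC (1.99 ± 0.35 SE, edgeR adjusted p = 0.0299). Near-identical olfactory receptor genes can share reads, so the level of Olfr111 is uncertain. Groups did not overlap for any of these 4 genes.

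The homeostatic genes of microglia, those of the resting state, were higher without a call of their own. All 13 had a positive log2 change, 9 were higher in both APP_SC libraries than in any WT_SC library, 0 passed with edgeR (10 at an unadjusted p under 0.05), and the median was 0.72. The fractalkine receptor gene Cx3cr1 was at 34.2, 30, 28.9, 28.4 and 27.3 CPM in WT_SC and at 50.6 and 67.1 CPM in APP_SC (log2 change 0.98, edgeR adjusted p = 0.11). DESeq2 called it, with an adjusted p of 0.0116. The purinergic receptor gene P2ry12 was at 14 to 23.5 CPM in WT_SC, and at 35.3 and 24.4 CPM in APP_SC. Tmem119 overlapped, at 9.62 to 16.7 CPM in WT_SC and 15.3 and 24.3 CPM in APP_SC. All 6 microglia markers had a positive log2 change, with a median of 0.80, and 5 lay above all WT_SC libraries. Their mean log2 CPM, itself higher in both APP_SC libraries than in WT_SC, was used as a covariate in a fit chosen after seeing the data. That fit called 1 gene, Lamr1-ps1 (edgeR adjusted p = 0.00404). Cst7 was then higher by 4.48 on the log2 scale (edgeR adjusted p = 0.0503), Clec7a 2.14 (edgeR adjusted p = 0.156), Prnp 0.59 (edgeR adjusted p = 0.332) and Ctss 0.49 (edgeR adjusted p = 0.397). App, higher by 0.85 in the main fit, was higher by 0.11 in this one (edgeR adjusted p = 0.892). The score differed with the genotype, so the fit cannot separate the 2.

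Of 16 tested genes of TREM2 signalling, 1 rose (Trem2), 14 were positive, and 9 were higher in both APP_SC libraries than in any WT_SC library, with a median log2 change of 0.50. Btk, a kinase of the pathway, was at 1.22 to 1.97 CPM in WT_SC and 2.73 and 3.91 CPM in APP_SC (log2 change 1.14, edgeR adjusted p = 0.201). The inhibitory sialic acid receptor gene Cd33 was at 17.7 to 21.9 CPM in WT_SC, and at 28.3 and 27.9 CPM in APP_SC (0.49, edgeR adjusted p = 0.18). The kinase gene Syk, named after its values were seen, was at 6.18 to 8.33 CPM in WT_SC and at 8.73 and 10.1 CPM in APP_SC, a small step beyond the WT_SC range.

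The Fc gamma receptors, which bind antibody, had 0 of 4 tested genes past the threshold with edgeR (4 at an unadjusted p under 0.05) and 3 of 4 above all WT_SC libraries in both APP_SC libraries. Fcer1g, their shared signalling chain, was at 3.87 to 8.62 CPM in WT_SC and at 12 and 11.2 CPM in APP_SC (log2 change 0.84, edgeR adjusted p = 0.849). In the complement system 0 of 17 tested genes passed with edgeR (7 at an unadjusted p under 0.05), DESeq2 called 2 (C4b and C3ar1), and 8 lay above all WT_SC libraries, with a median log2 change of 0.41. The highest-ranked was C4b, at 55 to 76.7 CPM in WT_SC and at 112 and 157 CPM in APP_SC (0.99 ± 0.19 SE, edgeR adjusted p = 0.083; DESeq2 adjusted p = 0.00663). C3ar1, the receptor for C3a, was at 3.96 to 7.95 CPM in WT_SC and at 9.95 and 13.1 CPM in APP_SC (0.97, edgeR adjusted p = 0.171; DESeq2 adjusted p = 0.0312). Itgam, the integrin CD11b, was at 1.46 to 3.48 CPM and at 6 and 4.41 CPM. The 3 chains of C1q, chosen after their values were seen, lay above the WT_SC range in both APP_SC libraries: C1qa was at 18.2 to 30 CPM in WT_SC and at 36.6 and 48 CPM in APP_SC (0.93, edgeR adjusted p = 0.388).

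Lysosomal genes other than Ctss showed smaller steps: 1 of 20 tested rose, 18 were positive, 6 lay above all WT_SC libraries, and the median log2 change was 0.28. Laptm5, a lysosomal membrane protein of blood cells, was at 21.4 to 34.3 CPM in WT_SC and at 51.1 and 49.7 CPM in APP_SC (0.90, edgeR adjusted p = 0.152). Cd68, which marks lysosomes of macrophages, overlapped by a narrow margin, at 7.22 to 15.8 CPM in WT_SC and 21.5 and 15.7 CPM in APP_SC. Among Toll-like receptors and their partners 0 of 18 passed with edgeR (4 at an unadjusted p under 0.05), DESeq2 called 1 (Tlr1), 17 were positive and 4 lay above all WT_SC libraries. Tlr1 was at 0.732 to 1.61 CPM in WT_SC and at 2.67 and 2.99 CPM in APP_SC (1.40, edgeR adjusted p = 0.118; DESeq2 adjusted p = 0.0419), and Cd180 at 3.36 to 5.86 CPM and at 8.79 and 9.48 CPM (1.12, edgeR adjusted p = 0.391).

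The 10 genes nearest to the threshold on the higher side had edgeR adjusted p-values of 0.0509 to 0.0859. DESeq2 called all 10, with adjusted p-values of 0.00138 to 0.0219, and limma-voom called Dock8 (adjusted p = 0.0366). Dock8, which activates the GTPase CDC42 in immune cells, was closest, at 9.53 to 14.5 CPM in WT_SC and 20.5 and 20.7 CPM in APP_SC (log2 change 0.73). Csf3r, the receptor for granulocyte colony-stimulating factor, was at 10.5 to 13 CPM in WT_SC, and at 21.8 and 25 CPM in APP_SC (0.96). Hpgds, a prostaglandin D synthase, was at 13.2 to 17.6 CPM and at 24.7 and 31.4 CPM (0.86). Myo1f, a myosin of leukocytes, was at 3.35 to 5.45 CPM and at 8.49 and 13.3 CPM (1.28). All 10 were above the WT_SC range in both APP_SC libraries.

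**Figure D3:**
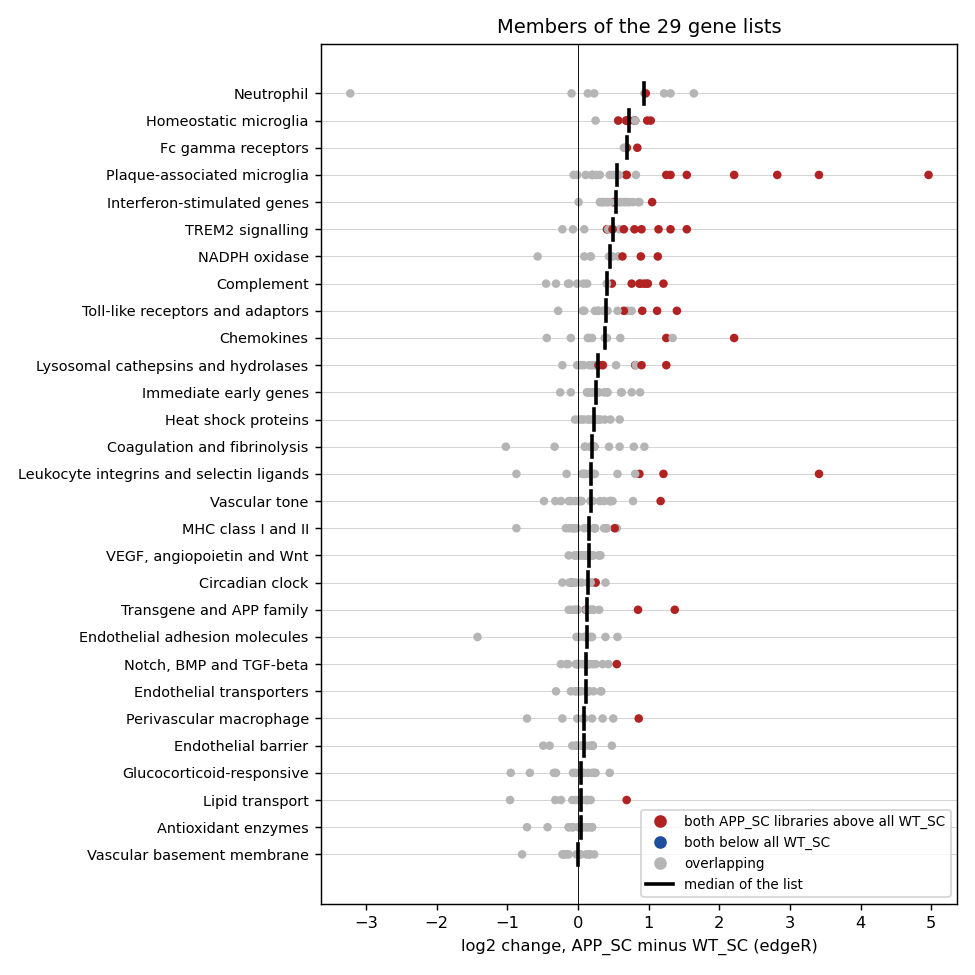
Log2 change from WT_SC to APP_SC (x axis) of each tested member of the 29 gene lists (rows, ordered by median); dark ticks are list medians, red points are genes with both APP_SC libraries above all WT_SC libraries, blue points both below and grey points overlapping. The lists of plaque-associated microglia, homeostatic microglia and TREM2 signalling have 9 red points each, complement has 8, and those of barrier, transport and basement membrane have none.

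NADPH oxidase, the target of the active peptide, had 0 of 10 tested subunit genes past the threshold with edgeR (2 at an unadjusted p under 0.05, and 0 with DESeq2). Cybb (chrX:9435252-9487771), the catalytic subunit of NOX2, was at 4.74, 3.46, 5.79, 7.77 and 3.87 CPM in WT_SC and at 6 and 9.4 CPM in APP_SC. The groups overlapped, and the log2 change was 0.57 ± 0.34 (SE, edgeR adjusted p = 1; exact permutation p = 0.19). Its cytosolic partner Ncf1 was beyond the WT_SC range in both APP_SC libraries without passing, at 4.27 to 7.87 CPM against 9.28 and 9.06 CPM (0.63, edgeR adjusted p = 0.841), and Ncf4 was not. The membrane partner Cyba was at 4.4 to 11 CPM and at 9.89 and 10.1 CPM, within the WT_SC range. Nox4, the oxidase of vessel walls, was near the floor of 3 counts, at 0.209 to 0.447 CPM in WT_SC and at 0.667 and 0.748 CPM in APP_SC. Antioxidant enzymes had 0 of 21 genes past the threshold with edgeR (0 at an unadjusted p under 0.05), and 0 had both APP_SC libraries outside the WT_SC range, with a median of 0.04. Haem oxygenase 1 (Hmox1) was at 2.24 to 3.57 CPM in WT_SC and at 2.37 and 1.75 CPM in APP_SC.

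Interferon-stimulated genes all had a positive log2 change, 26 of 26, with a median of 0.54, but 0 passed with edgeR (6 at an unadjusted p under 0.05) and 3 lay above all WT_SC libraries in both APP_SC libraries. Ifit3, an antiviral gene, was at 8.97, 8.07, 8.84, 13.2 and 7.43 CPM in WT_SC and at 18.3 and 20.3 CPM in APP_SC (1.05 ± 0.23 SE, edgeR adjusted p = 0.141; DESeq2 adjusted p = 0.0168). Mx2 was at 2.2 to 3.96 CPM in WT_SC, with APP_SC replicate 1 inside that range at 3.4 CPM and replicate 2 above it at 7.4 CPM. Replicate 1 was above all WT_SC libraries for 7 of the 26 genes and replicate 2 for 13, shared genes included. Over all genes these shares were 15% and 13.6%. The mean log2 CPM of the list was 2.75 to 3.71 in WT_SC, and 3.54 and 3.86 in APP_SC, so the groups overlapped. Genes of MHC class I and II had 0 of 19 past the threshold with edgeR (0 at an unadjusted p under 0.05) and a median of 0.15.

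The lists on the endothelium, on signals to it and on its basement membrane showed no call. Of 17 barrier genes, 15 transporters, 12 adhesion molecules, 23 genes of VEGF, angiopoietin and Wnt signalling and 16 of the basement membrane, 0 passed with edgeR, 0 had an unadjusted p under 0.05 and 0 had both APP_SC libraries outside the WT_SC range. The tight junction gene Cldn5 was at 174, 241, 258, 383 and 232 CPM in WT_SC and at 155 and 333 CPM in APP_SC, below and within the WT_SC range. The glucose transporter gene Slc2a1, chosen after its values were seen like the next gene, was at 500 to 1507 CPM in WT_SC and at 915 and 692 CPM in APP_SC. Icam1, to which neutrophils bind, was at 7.54 to 36.5 CPM in WT_SC and at 17.3 and 19.1 CPM in APP_SC (log2 change -0.02 ± 0.68 SE), an error so wide that a change of the size seen for Ptprc could not be told from none. Endothelial, pericyte and smooth muscle markers had medians of 0.05, 0.06 and 0.19.

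Genes of neutrophils were low, and their level turned on 1 library. Of the 9 tested, 0 passed with edgeR (2 at an unadjusted p under 0.05), and the median log2 change was 0.94 with control peptide and -0.44 with inhibitor. Replicate 1 was above all WT_SC libraries for 1 gene, and replicate 2 for 7, shared genes included. The gene above the WT_SC range in both was Csf3r, described above, which DESeq2 called (adjusted p = 0.00688). Ngp, a granule protein, was at 0.625 to 1.39 CPM in WT_SC, at 0.728 CPM in APP_SC replicate 1 and at 4.49 CPM in replicate 2, and S100a9 was at 0.268 to 1.02 CPM, 0.546 CPM and 1.66 CPM. The summed level of the 3 tested defining markers was 1.79 to 3.56 CPM in WT_SC, and 2.06 and 8.4 CPM in APP_SC, whereas the defining markers Ly6g and Retnlg did not pass the filter on low counts. Lcn2, lipocalin 2, made by neutrophils and by stressed vessels and astrocytes, was at 56.5, 47.5, 2.13, 0.625 and 113 CPM in WT_SC and at 4.73 and 4.66 CPM in APP_SC. Its log2 change of -3.22 ± 1.39 (SE) did not pass (edgeR adjusted p = 1), since the WT_SC libraries lay on both sides of APP_SC. Leukocyte integrins and selectin ligands had 1 of 14 genes past the threshold, Itgax, and Itgb2, the shared beta chain, was at 4.61 to 7.77 CPM in WT_SC and 9.04 and 13.1 CPM in APP_SC (0.87, edgeR adjusted p = 0.609).

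The astrocyte markers, as a mean of log2 CPM, were at 7.26 to 7.5 in WT_SC and at 7.86 and 7.67 in APP_SC, so both APP_SC libraries were above the WT_SC range. Of the 6, 0 passed with edgeR (1 at an unadjusted p under 0.05; DESeq2 called Gfap) and 2 lay above all WT_SC libraries. Gfap, the intermediate filament of reactive astrocytes, was at 42.4, 46.9, 48.8, 63.7 and 78.1 CPM in WT_SC and at 124 and 108 CPM in APP_SC (log2 change 1.05 ± 0.24 SE, edgeR adjusted p = 0.152; DESeq2 adjusted p = 0.0308). Both APP_SC libraries were above the WT_SC range. Aqp4 was at 77.2 to 129 CPM in WT_SC, and at 147 and 119 CPM in APP_SC. Serpina3n, another reactive gene, was at 10.3 to 36.1 CPM in WT_SC and at 23.1 and 17.2 CPM in APP_SC, inside the WT_SC range. Of 9 tested reactive astrocyte genes, 0 passed with edgeR (3 at an unadjusted p under 0.05) and 2 lay above all WT_SC libraries.

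Lower genes were many at an unadjusted p and small in size. The smallest p belonged to Arhgef25, an exchange factor for small GTPases, at 112, 93.1, 86, 94.1 and 98.2 CPM in WT_SC and at 69.1 and 67 CPM in APP_SC (log2 change -0.51, edgeR adjusted p = 0.251). Camkv, a neuronal kinase-like gene, was at 166 to 195 CPM in WT_SC and at 133 and 130 CPM in APP_SC (-0.45, edgeR adjusted p = 0.298). Both were among the lower calls of DESeq2, with adjusted p-values of 0.0312 and 0.0308. Both APP_SC libraries were below every WT_SC library for each of them. Cacna1h, a calcium channel gene, was at 141 to 157 CPM in WT_SC and at 115 and 118 CPM in APP_SC (-0.37, edgeR adjusted p = 0.558).

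The 2 APP_SC libraries were close for most genes that rose and differed elsewhere. Against the mean of WT_SC on the log2 CPM scale, Prnp was higher by 1.35 in replicate 1 and by 1.42 in replicate 2, Mpeg1 by 1.42 and 1.59, Ctss by 1.27 and 1.25, and Clec7a by 2.66 and 2.80. Itgax stood further apart, at 2.66 and 3.59, and Trem2 at 1.04 and 1.52. Against WT_SC libraries of their own kind in Y-linked genes, 3 for replicate 1 and 2 for replicate 2, Mpeg1 was higher by 1.49 and 1.5, Trem2 by 0.98 and 1.61, and Ptprc by 1.09 and 1.09. With the mean log2 CPM of 4 Y-linked genes as a covariate, a fit chosen after seeing the data, 23 genes were higher past the threshold, the 10 among them, and 0 lower. With a choroid plexus score as covariate there were 10, the same genes.

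**Figure D4:**
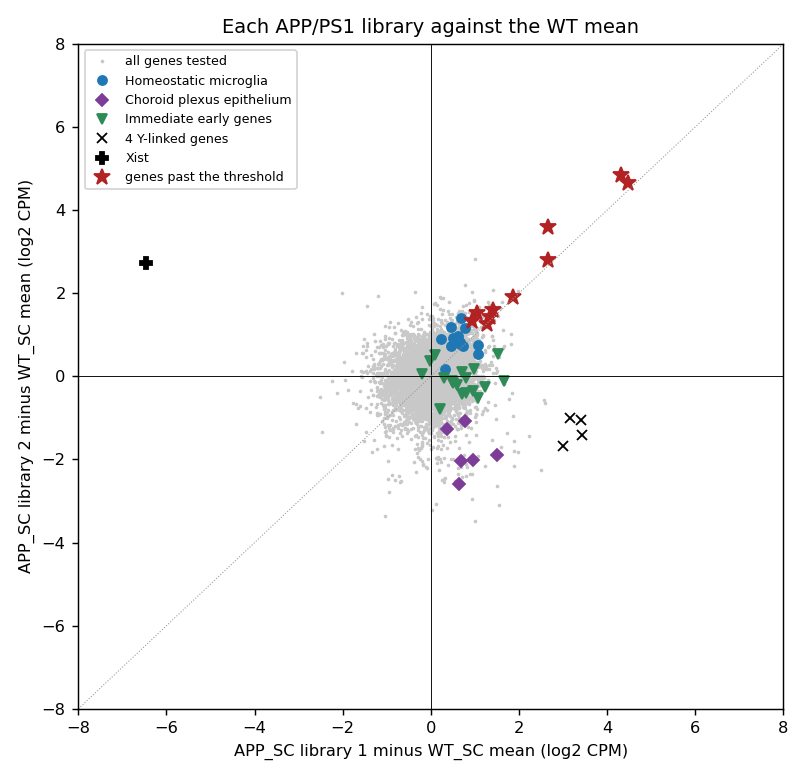
Each tested gene by its log2 CPM in APP_SC library 1 (x axis) and in APP_SC library 2 (y axis), both minus the mean of the 5 WT_SC libraries; the dotted line marks equal values and coloured symbols mark the named groups. The 10 genes past the threshold lie near the dotted line at the upper right, Xist is far to the upper left, the Y-linked genes are to the lower right, and choroid plexus markers are below 0 for library 2.

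Outside Xist, Y-linked and choroid plexus genes, the libraries differed in genes of rapid response. Replicate 1 was above all WT_SC libraries for 11 of 18 immediate early genes and replicate 2 for 1. Egr1, a transcription factor induced by activity, was at 55.7 to 131 CPM in WT_SC, at 168 CPM in replicate 1 and at 56.6 CPM in replicate 2. Of 16 heat shock genes, 11 were above all WT_SC libraries in replicate 1 and 0 in replicate 2, and Hspa8 was at 274 to 534 CPM in WT_SC, and at 645 and 337 CPM in APP_SC. With edgeR, 0 genes of either list passed and 0 had an unadjusted p under 0.05. The libraries also differed in the share of counts that fell on Gm26917 and Gm42418, 2 lincRNA genes that take many reads in every library: 7.34% in APP_SC replicate 1 and 15.4% in replicate 2, below and above the 9.18% to 14.3% of WT_SC. Its part in these differences was not tested. Egr1 and Hspa8 were named after their values were seen. Of the genes at 5 CPM or more in a control-peptide library, the 10 that replicate 1 exceeded most in included the choroid plexus genes Cldn2, at 24.7 against 0.832 CPM, and Tmem72, at 78.7 against 4.32 CPM. Those of replicate 2 included the stress kinase-like gene Trib3, at 6.15 against 1.7 CPM, with WT_SC at 1.5 to 2.68 CPM, and the erythroid gene Alas2, at 12.4 against 4 CPM, with WT_SC at 0.405 to 10.4 CPM.

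The same genotype difference was read in the 10 libraries given the inhibitor, which share no sample with the 7 but share the estimate of dispersion. There 34 genes were past the threshold (0.181% of genes), 33 higher and 1 lower, and all 10 genes of the control-peptide comparison were among them. All 5 APP_NOX2 libraries were above all 5 WT_NOX2 libraries for each of the 10, against 0.629% of all genes. The 10 are 100% of the calls with control peptide and 29.4% of those with inhibitor. Of the 34 genes, 33 had a positive log2 change with control peptide, and 32 were higher in both APP_SC libraries than in any WT_SC library. Cst7 ranged from 0 to 0.449 CPM in WT_NOX2 and from 6.17 to 10.6 CPM in APP_NOX2, and Prnp from 301 to 461 CPM and from 682 to 1418 CPM. Gfap, not past the threshold with control peptide, had a log2 change of 1.29 there (edgeR adjusted p = 0.00311), and C4b one of 1.22 (edgeR adjusted p = 0.000617).

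The difference between the genotype effects was tested directly. With edgeR 0 genes passed, with 158 at an unadjusted p under 0.05, and DESeq2 and limma-voom gave 0 as well. None of the genes that rose reached 0.05 unadjusted in that test. Cst7 came nearest (-1.37 on the log2 scale, unadjusted p = 0.159, edgeR adjusted p = 1). Ifit3 was at 1.05 (log2 change) with control peptide against 0.41 with inhibitor, and edgeR's test of this difference of 0.64 did not pass (unadjusted p = 0.0438, edgeR adjusted p = 1). Median log2 changes, control peptide first and inhibitor second, were 0.72 and 0.58 for homeostatic microglia genes, 0.54 and 0.31 for interferon-stimulated genes, and 0.55 and 0.45 for plaque-associated genes.

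**Figure D5:**
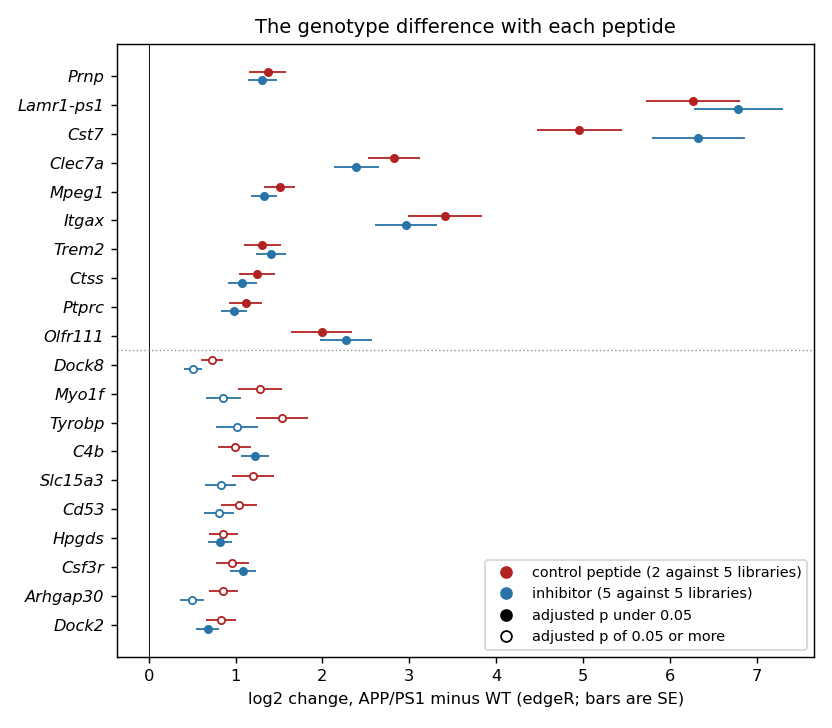
Log2 change from WT to APP/PS1 (x axis; bars are standard errors) with control peptide (red, 2 against 5 libraries) and with inhibitor (blue, 5 against 5 libraries) for the 10 genes past the threshold with control peptide (above the dotted line) and the 10 next higher genes (below it); filled points have an adjusted p under 0.05 by edgeR. All 20 genes are to the right of 0 with both peptides, and the 10 upper genes are filled in both.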

How the data were processed

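The deposited table holds raw counts per Ensembl gene for the 17 libraries, 1 column each, without any normalisation by the authors that the values show. Per the submitters' processing notes cutadapt, STAR, HTSeq and DESeq2 were used and the builds mm10 and GRCh37 named, with no role or version. How multimapping reads and strand were counted is not given in the sources used here. Another 20 columns of the table, which match no sample, were not used. Symbols came from GENCODE vM21 for 42250 IDs (437 had none), and mitochondrially encoded genes were not analysed here. Per the labels, microvessels were pelleted from cortex in dextran, RNA was depleted of ribosomal RNA, and a stranded mRNA kit was used.

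Genes passing filterByExpr were fitted with edgeR 4.0.16 (R 4.3.3), TMM scaling and 1 mean per group of genotype and peptide over all 17 libraries, since APP_SC has 2. Quasi-likelihood F tests were adjusted by Benjamini-Hochberg, threshold 0.05. Log2 CPM used a prior count of 2. Library totals were 9356110 to 17862965, so 3 counts, the floor used for genes at 0, equal 0.174 to 0.314 CPM, a bound for counting error only. No pair of the 21 among the 7 libraries was identical. Exact permutation tests used scipy 1.17.1. Alternatives were DESeq2 1.42.0, limma-voom (limma 3.58.1), other scalings and filters, the 7 libraries alone, each library left out, and, added after seeing the data, 3 marker scores as covariates. The procedure was tested on simulated data. Gene lists got counts and medians, not tests.

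Named were App, Prnp and Cybb, genes past the threshold, the 10 next in each direction, up to 3 further members per list, markers, and the 10 genes in each direction that differed most between the APP_SC libraries at 5 CPM or more. Bace1, Ide, Mme, Axl, Spp1, Syk, the C1q chains, Ncf4, Nox4, Slc2a1, Icam1, Egr1, Hspa8, Rpsa and the neighbours of Prnp were chosen after their values were seen. The comparison, lists and markers were chosen with earlier results of these data known. Some genes are not reported here.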

Additional observations from a re-analysis of the deposited data

Results flagged for a closer look

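Among the 5 WT_SC libraries, 3 of the 57 measures examined had 1 library far from the other 4, where chance gives about 2.85, and the critical ratio of the gap to the whole range was 0.71. The mean log2 CPM of the NADPH oxidase genes was 2.08 in WT_SC replicate 4 and 1.73 to 1.82 in the others, a ratio of 0.743. The mean log2 CPM of glucocorticoid-responsive genes was 6.36 in WT_SC replicate 1 and 4.54 to 5.00 in the others, a ratio of 0.747. The total count of WT_SC replicate 1 was 17862965, against 9356110 to 11342154 in the others, a ratio of 0.767. Both APP_SC libraries, at 2.20 and 2.31, were above WT_SC replicate 4 in the NADPH oxidase mean.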

How the results depend on the processing

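Against the 10 genes called, DESeq2's Wald test called 45, the fit with a Y-linked score 23 and the fit with a microglia score 1. Leaving out 1 library at a time gave 4 to 17 calls, 4 without APP_SC replicate 2, 6 without APP_SC replicate 1 or WT_SC replicate 3, and 17 without WT_SC replicate 4. The causes were not tested. The count was 7 to 13 with DESeq2 size factors, limma-voom, other filters, the choroid plexus score or the 7 libraries alone. With DESeq2 size factors, 613 genes had both APP_SC libraries above all WT_SC libraries and 820 below, against 676 and 737. The difference between the genotype effects had 0 calls in every fit run, by edgeR, DESeq2 and limma-voom. None of the named genes followed over these fits changed direction. Of the values for named genes, 450 stayed on their side of the threshold, 31 lost it and 31 gained it. Of the list medians, 422 moved by less than the spread and 42 by more. No paired analysis was possible because the labels give no replicate numbers. The log2 change of Lamr1-ps1 was 5.93 to 7.29, the highest without WT_SC replicate 5. The number of APP_SC libraries, 2, limits the precision.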

Other observations

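Genes that set vessel diameter, clotting, the circadian clock and lipid transport had no call with edgeR. Of 21 genes of vascular tone, 0 passed (3 at an unadjusted p under 0.05), and Agtr1a, the angiotensin II receptor, was the one above the WT_SC range in both APP_SC libraries, at 0.305 to 0.81 CPM in WT_SC and 1.15 and 1.41 CPM in APP_SC (log2 change 1.17, edgeR adjusted p = 1). Of 23 genes of Notch, BMP and TGF-beta signalling, 0 passed with edgeR (1 at an unadjusted p under 0.05). Tgfbr1, a TGF-beta receptor, was at 41 to 63.7 CPM in WT_SC and at 75.6 and 70.4 CPM in APP_SC (0.55, edgeR adjusted p = 0.452).

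Of 15 clock genes, 0 passed with edgeR (0 at an unadjusted p under 0.05), and Clock itself, chosen after its values were seen, was at 151 to 155 CPM in WT_SC and at 141 and 145 CPM in APP_SC (log2 change -0.09). Bhlhe41, a repressor of the clock, lay on the other side, at 53.8 to 58.9 CPM in WT_SC and 69.6 and 60.7 CPM in APP_SC (0.25, edgeR adjusted p = 1). Of 14 lipid transport genes, Lpl was the one above the WT_SC range in both APP_SC libraries, at 17.3 to 23 CPM in WT_SC and at 30.1 and 33.2 CPM in APP_SC.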
